A study of Mus musculus with 6 samples.

Results

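The genes described here are 9 markers of pyramidal neurons in the CA1 and CA2 fields of the hippocampus, taken by gene symbol from a table of 51912 genes. Fibcd1, Wfs1, Mpped1 and Pou3f1 mark CA1, and Rgs14, Amigo2, Pcp4, Map3k15 and Cacng5 mark CA2. Their RNA was measured by sequencing in whole hippocampus from C57BL/6 and DBA/2 mice, both inbred, in 3 libraries of each strain, and the labels name no treatment. The labels give no sex, age or substrain, and do not say whether each library is 1 animal, so the spread behind the p-values may in part be technical. The question put to the data is which of these markers differ between the strains.

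Pyramidal neurons are the excitatory output cells of the hippocampus. CA1 is its main output field, and CA2 is a small field between CA3 and CA1 that is known for its part in social memory and for resisting the usual forms of synaptic potentiation. Each field has its own set of transcripts, but none of these markers is limited to it. Pcp4, for example, is also known in the thalamus, striatum, cortex and dentate gyrus, and Wfs1 and Pou3f1 in the cortex.

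Levels are CPM, a gene's count relative to the library total scaled by its TMM factor, and a gene was called when edgeR's quasi-likelihood test gave a Benjamini-Hochberg adjusted p under 0.05 over 17517 genes. Log2 fold changes are DBA/2 over C57BL/6. The lowest and highest total counts were 13867280 and 20185683 for C57BL/6 libraries, and 13839366 and 16912153 for DBA/2 libraries. Xist, which female cells express, had 3214, 1 and 6995 counts in C57BL/6 replicates 1, 2 and 3 and 2 to 12 counts in the DBA/2 libraries, so Xist is not matched between the strains. Results are therefore given also without C57BL/6 replicates 1 and 3, called the Xist libraries here. The single C57BL/6 library that remains is then assumed to vary like the DBA/2 libraries. In whole tissue, fewer cells of a type and less RNA per cell cannot be told apart. The submitters name GRCm38, the C57BL/6J reference genome, as the build, and its effect on DBA/2 counts was not tested.

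Among the 9 markers, the CA2 gene Pcp4 differed most, with a 2.2-fold lower level in DBA/2. Rgs14, Map3k15 and Pou3f1 rose by 1.21-fold to 1.39-fold and Cacng5 fell 1.19-fold, while Fibcd1, Wfs1, Mpped1 and Amigo2 were not called. All 9 passed the filter on low counts. Thus 3 members were called higher in DBA/2, where 9.09% of all tested genes were, and 2 were called lower, where 13.7% were. In either direction 5 of 9 were called, against 22.8% of all tested genes. For these 5 members every library of one strain lay above every library of the other, as for 36.8% of tested genes (16.7% higher and 20.1% lower in DBA/2). The median log2 fold change was 0.04 over the CA1 members, 0.18 over the CA2 members and 0.00 over all tested genes. Without both Xist libraries 2 members were called, Pcp4 lower and Amigo2 higher.

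**Figure D1:**
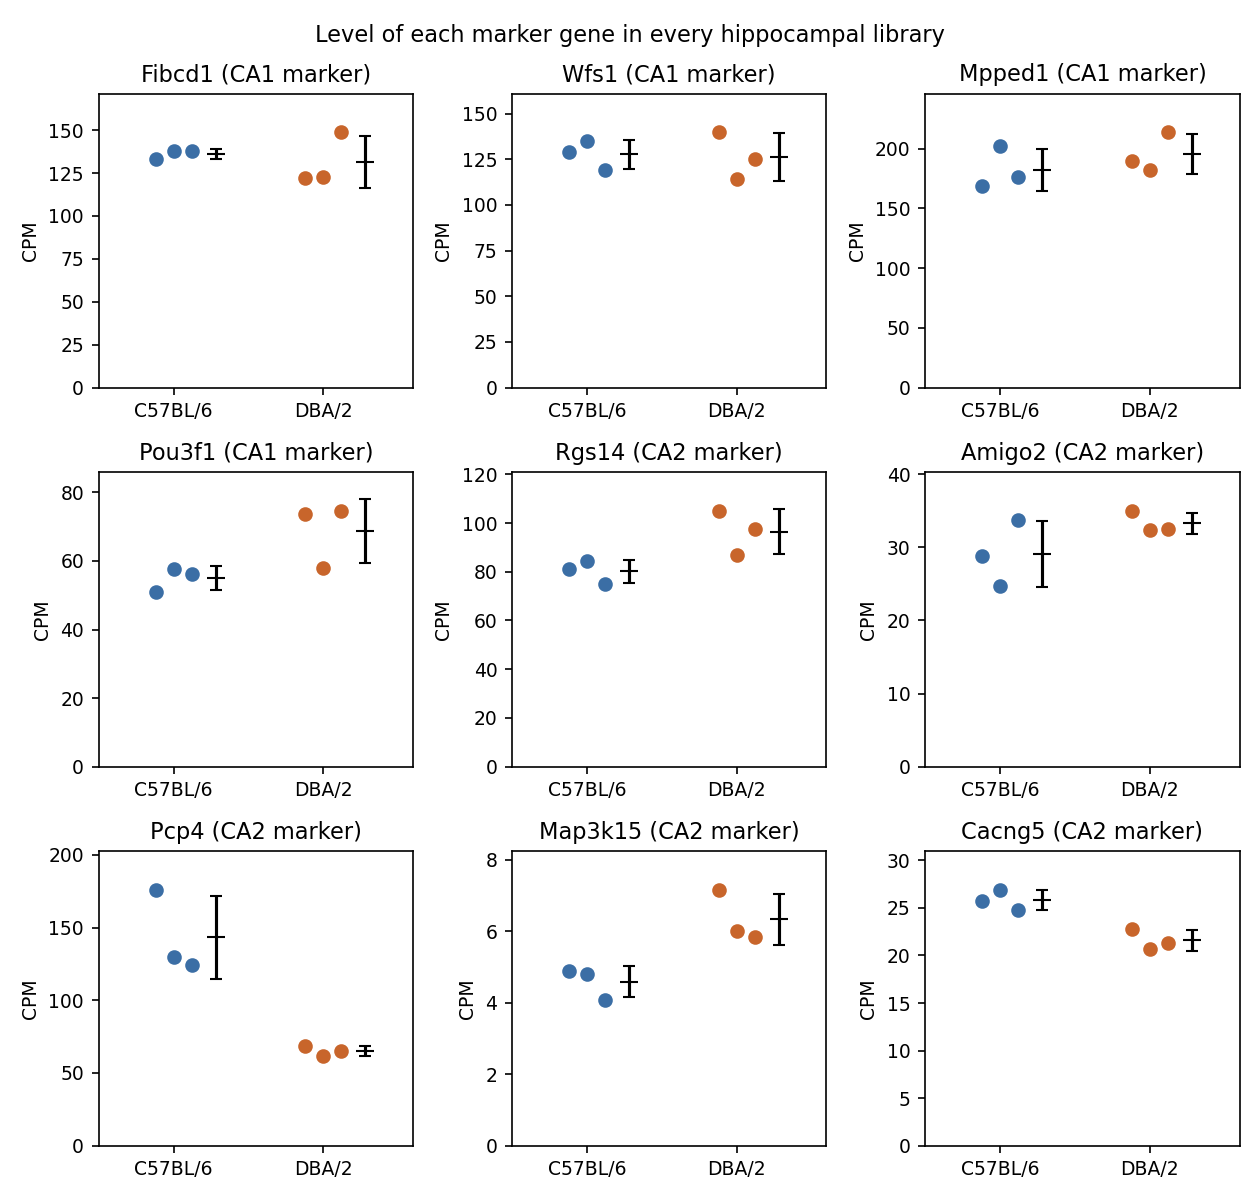
Level of each of the 9 marker genes in CPM (vertical axes from 0) in the 3 C57BL/6 libraries (blue) and the 3 DBA/2 libraries (orange), replicates 1 to 3 from left to right, with the mean and SD of a strain in black. The strains do not overlap for Pou3f1, Rgs14, Pcp4, Map3k15 and Cacng5.

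Pcp4 encodes a small protein that binds calmodulin through an IQ motif and speeds its exchange of calcium. The gene (ENSMUSG00000090223) lies on the plus strand of chromosome 16, from 96467606 to 96525793 on GRCm38. Its level was 176, 130 and 124 CPM in the C57BL/6 libraries and 68.5, 61.8 and 64.8 CPM in the DBA/2 libraries. Every DBA/2 library lay below every C57BL/6 library, and C57BL/6 replicate 1 was the highest of all. The means were 143 ± 28.2 and 65.0 ± 3.32 CPM (SD, n = 3 each), and the log2 fold change was -1.14 ± 0.16 (SE, quasi-likelihood edgeR, adjusted p = 0.00701), a 2.2-fold fall. Leaving out C57BL/6 replicate 1 gave -0.97 (edgeR adjusted p = 1.68e-10). Leaving out DBA/2 replicate 2 gave -1.10 and ended the call (edgeR adjusted p = 0.0507), the one of 17 alternatives that did. Without both Xist libraries the value was -1.0 (edgeR adjusted p = 5.15e-12). GENCODE M21 places 243 exonic bases of the neighbouring gene Igsf5 over Pcp4 on the same strand. The row of that symbol in the deposited table has another identifier and held 3 to 11 counts per library, against at least 900 for Pcp4.

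Markers of thalamus and habenula, tissue that borders the hippocampus, were lower in the same DBA/2 libraries. Like the other lists, the list of these markers was drawn up with earlier results of these data known. Of 14 such markers tested, 9 were called lower (64.3%) and none higher, where 13.7% of all tested genes were called lower. All 14 had DBA/2 libraries below every C57BL/6 library, as had 20.1% of all tested genes. Their summed level was 598, 437 and 505 CPM in C57BL/6 and 298, 262 and 228 CPM in DBA/2, and none was at 0 in any library. C57BL/6 replicate 1 was the highest for this sum, as it was for Pcp4. DBA/2 replicate 1 was likewise the highest DBA/2 library for both, at 68.5 CPM for Pcp4 and 298 CPM for the sum. Replicates 2 and 3 were ordered differently. In C57BL/6, replicate 2 lay above replicate 3 for Pcp4 (130 and 124 CPM) but below it for the sum. In DBA/2, replicate 2 lay below replicate 3 for Pcp4 (61.8 and 64.8 CPM) but above it for the sum. The part of thalamic and habenular RNA in the fall of Pcp4 was not tested. Summed markers of other places where Pcp4 is known overlapped between the strains. Single markers were called in some of these lists, 3 of 7 for striatum and 7 of 11 for dentate granule cells, and none of 8 for neocortex. The part of these places in the fall of Pcp4 was not tested either. Summed striatum markers had 189 to 207 CPM in C57BL/6 and 202 to 280 CPM in DBA/2, neocortex markers 231 to 243 and 217 to 241 CPM, and dentate granule cell markers 653 to 681 and 654 to 694 CPM.

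**Figure D2:**
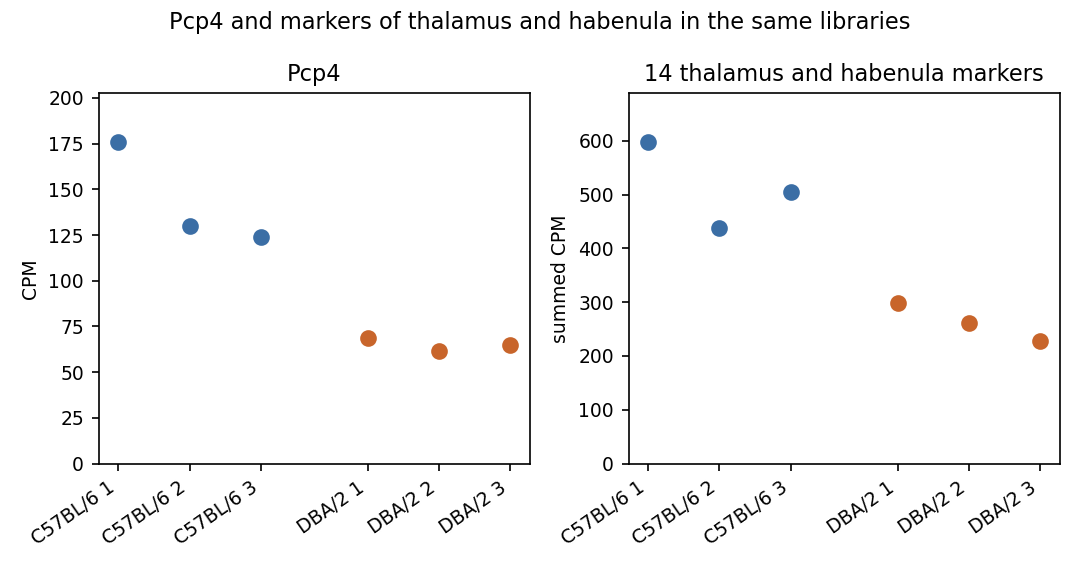
Pcp4 (left, CPM) and the sum of 14 thalamus and habenula markers (right, summed CPM) in each library, C57BL/6 in blue and DBA/2 in orange, axes from 0. Both are lower in all 3 DBA/2 libraries, and replicate 1 is the highest library of each strain in both. In each strain replicates 2 and 3 stand in opposite order in the left and right panels.

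The 250 bases before the start annotated by RefSeq are shown for Pcp4 and Cacng5, the members that fell. Those of Wfs1, a member that was not called, are shown beside them to compare composition. They are from RefSeq on GRCm38.p6 (chr16:96467356-96467605 on the plus strand for Pcp4, chr11:107915056-107915305 and chr5:36988983-36989232 on the minus strand for Cacng5 and Wfs1), and capitals mark CpG dinucleotides.
Pcp4: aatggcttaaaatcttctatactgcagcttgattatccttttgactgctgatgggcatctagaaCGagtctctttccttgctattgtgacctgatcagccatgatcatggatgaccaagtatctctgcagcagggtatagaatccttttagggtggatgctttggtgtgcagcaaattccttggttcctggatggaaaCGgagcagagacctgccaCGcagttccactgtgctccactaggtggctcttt
Cacng5: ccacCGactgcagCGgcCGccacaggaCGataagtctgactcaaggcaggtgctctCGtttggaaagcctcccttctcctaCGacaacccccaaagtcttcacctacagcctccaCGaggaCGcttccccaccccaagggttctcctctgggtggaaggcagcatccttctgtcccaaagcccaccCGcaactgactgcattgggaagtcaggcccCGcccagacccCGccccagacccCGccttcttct
Wfs1: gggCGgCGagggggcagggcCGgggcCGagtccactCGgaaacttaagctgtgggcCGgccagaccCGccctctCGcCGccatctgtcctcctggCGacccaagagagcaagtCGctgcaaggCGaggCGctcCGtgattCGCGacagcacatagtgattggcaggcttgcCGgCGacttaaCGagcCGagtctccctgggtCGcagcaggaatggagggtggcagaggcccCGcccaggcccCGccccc
The Pcp4 sequence held 3 CpG dinucleotides and 46.8% G and C, against medians of 6 and 52.4% over 32851 RefSeq promoters of this length. Cacng5 held 12 CpG dinucleotides and Wfs1 23. At their first listed start, Fibcd1, Mpped1 and Amigo2 held 34, 47 and 38. Of all promoters, 37.8% held no more CpG dinucleotides than Pcp4, 68.5% no more than Cacng5 and 88.0% no more than Wfs1. For Fibcd1, Mpped1 and Amigo2 these shares were 97.0%, 99.8% and 98.4%. The sequence GGGCGG, searched on both strands, was found at 0 places for Pcp4, 2 for Cacng5, 4 for Wfs1, 4 for Amigo2, 7 for Mpped1 and 1 for Fibcd1, and 32.7% of all promoters held it. TATAAA was found in none of these 6 windows and in 12.4% of all promoters. Mpped1 and Cacng5 also have a second listed start, with 2 CpG dinucleotides each. RefSeq starts can differ from the GENCODE M21 gene coordinates given here. The Wfs1 window lies partly, and the first Mpped1 window wholly, inside the gene by those coordinates. Of the 9 members, 6 matched the RefSeq table, and Rgs14, Pou3f1 and Map3k15 did not. These are sequences of the reference genome, which is C57BL/6J, and matches are descriptions, not binding sites.

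Rgs14 encodes a regulator of G protein signalling that deactivates inhibitory G alpha subunits and also binds Ras and Raf, and it is known to limit synaptic potentiation in CA2. The gene (ENSMUSG00000052087, chromosome 13, 55369732 to 55384687, plus strand) had 81.2, 84.3 and 74.9 CPM in C57BL/6 and 105, 86.9 and 97.6 CPM in DBA/2. The strains did not overlap, though C57BL/6 replicate 2 and DBA/2 replicate 2 lay close together. The log2 fold change was 0.27 ± 0.07 (SE, quasi-likelihood edgeR, adjusted p = 0.00442), from 80.1 ± 4.79 to 96.6 ± 9.22 CPM (SD, n = 3 each). Rgs14 was called whichever single library was left out. Without both Xist libraries it had a log2 fold change of 0.20 (edgeR adjusted p = 0.225).

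Cacng5 encodes a transmembrane auxiliary subunit of AMPA receptors, the receptors of fast excitatory transmission. The gene (ENSMUSG00000040373, chromosome 11, 107874605 to 107915055, minus strand) had 25.7, 26.9 and 24.8 CPM in C57BL/6 and 22.8, 20.7 and 21.3 CPM in DBA/2. The ranges did not overlap, and the spread within each strain was small, with a CV of 4.09% and 5.20%. The log2 fold change was -0.25 ± 0.08 (SE, quasi-likelihood edgeR, adjusted p = 0.0245). The call was lost without C57BL/6 replicate 1, C57BL/6 replicate 2, DBA/2 replicate 2 or DBA/2 replicate 3, with values of -0.25, -0.22, -0.22 and -0.24 (edgeR adjusted p = 0.0648, 0.0978, 0.0858 and 0.064). Without both Xist libraries it was -0.31 (edgeR adjusted p = 0.128).

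Map3k15 encodes a protein kinase of the stress-activated MAP kinase cascade. It was the least abundant member, with counts of 81, 66 and 82 (4.88, 4.81 and 4.09 CPM) for C57BL/6 against 122, 102 and 81 (7.16, 6.01 and 5.84 CPM) for DBA/2. The DBA/2 libraries lay above the C57BL/6 libraries, with a log2 fold change of 0.48 ± 0.16 (SE, quasi-likelihood edgeR, adjusted p = 0.0333). The gene (ENSMUSG00000031303) lies on chromosome X from 159988433 to 160123351 on the plus strand, and the C57BL/6 libraries with Xist counts had 4.88 and 4.09 CPM of it, against 4.81 CPM in the one without. It shares 603 exonic bases with Pdha1 on the opposite strand, a subunit of pyruvate dehydrogenase which had means of 226 ± 2.97 CPM for C57BL/6 and 235 ± 5.32 CPM for DBA/2 (SD, n = 3 each). No source used here says whether counting used strand, so reads of the 2 genes in this stretch may not be told apart, and the level of Map3k15 is uncertain. The call was lost when any of 5 of the 6 libraries was left out, all but DBA/2 replicate 3 (edgeR adjusted p from 0.032 to 0.157 over the 6), and without both Xist libraries (0.40, edgeR adjusted p = 0.389).

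Amigo2 encodes a leucine-rich repeat and immunoglobulin domain adhesion protein. The gene (ENSMUSG00000048218, chromosome 15, 97244125 to 97247287, minus strand) had 28.8, 24.7 and 33.8 CPM in C57BL/6 and 35, 32.4 and 32.5 CPM in DBA/2. C57BL/6 replicate 3 lay within the DBA/2 range, and the gene was not called, with a log2 fold change of 0.18 ± 0.09 (SE, quasi-likelihood edgeR, adjusted p = 0.165). The 95% interval of the DBA/2 to C57BL/6 ratio was 0.996 to 1.30. Without C57BL/6 replicate 3 the log2 fold change was 0.31 and the gene was called (edgeR adjusted p = 0.0166), as it was without both Xist libraries (0.43, edgeR adjusted p = 0.0142). Pced1b on the opposite strand shares 58 exonic bases with it and had 5.21 ± 0.577 and 6.34 ± 0.494 CPM (SD, n = 3 each).

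Pou3f1 encodes a POU-domain transcription factor and was the one CA1 member that was called. The single-exon gene (ENSMUSG00000090125, chromosome 4, 124656807 to 124660655, plus strand) had 51.0, 57.7 and 56.3 CPM in C57BL/6 and 73.7, 58.0 and 74.6 CPM in DBA/2. DBA/2 replicate 2 lay just above the highest C57BL/6 library, and the other DBA/2 libraries lay well above it. The log2 fold change was 0.32 ± 0.09 (SE, quasi-likelihood edgeR, adjusted p = 0.0185). The call was lost without C57BL/6 replicate 1, DBA/2 replicate 1 or DBA/2 replicate 3 (edgeR adjusted p = 0.0608, 0.0564 and 0.0543), and without both Xist libraries (0.25, edgeR adjusted p = 0.277). Without DBA/2 replicate 2 it was 0.43 (edgeR adjusted p = 2.37e-05). The antisense gene Gm2164 shares 330 exonic bases with Pou3f1 and had 2.48 ± 0.643 and 4.06 ± 0.67 CPM (SD, n = 3 each). Gm2164 was itself called higher in DBA/2, by 0.73 ± 0.22 on the log2 scale (SE, quasi-likelihood edgeR, adjusted p = 0.0176). Whether counting used strand is not given, so reads of the shared stretch may not be told apart.

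The other CA1 members overlapped between the strains. Fibcd1, a membrane receptor for acetylated sugars (ENSMUSG00000026841, chromosome 2, 31813290 to 31846005, minus strand), had 133, 138 and 138 CPM in C57BL/6 and 122, 123 and 149 CPM in DBA/2. Its DBA/2 libraries lay on both sides of the narrow C57BL/6 range, with a log2 fold change of -0.06 ± 0.07 (SE, quasi-likelihood edgeR, adjusted p = 0.585). Wfs1 encodes wolframin, a membrane glycoprotein of the endoplasmic reticulum that is mutated in Wolfram syndrome (ENSMUSG00000039474, chromosome 5, 36966104 to 36989205, minus strand). It had 129, 135 and 119 CPM in C57BL/6 and 140, 114 and 125 CPM in DBA/2, and both the highest and the lowest library were DBA/2. Its log2 fold change of -0.02 ± 0.07 (SE, quasi-likelihood edgeR, adjusted p = 0.897) was 0.01 when the library size alone set the scale. Mpped1, a predicted metallophosphoesterase (ENSMUSG00000041708, chromosome 15, 83779467 to 83858494, plus strand), had 169, 202 and 176 CPM in C57BL/6 and 190, 182 and 214 CPM in DBA/2. Its ranges overlapped, and the log2 fold change was 0.10 ± 0.07 (SE, quasi-likelihood edgeR, adjusted p = 0.395). The 95% intervals of the DBA/2 to C57BL/6 ratio were 0.872 to 1.06 for Fibcd1, 0.892 to 1.09 for Wfs1 and 0.959 to 1.20 for Mpped1.

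Levels can be set side by side between genes only per exonic length, as in the deposited FPKM values. In C57BL/6 Pcp4 stood highest with 221 ± 42.9 FPKM, followed by Mpped1 (42.1 ± 4.03), Wfs1 (33.4 ± 2.06), Rgs14 (31.8 ± 1.84), Fibcd1 (28.4 ± 0.760), Pou3f1 (14.2 ± 0.932), Amigo2 (8.51 to 11.7 over the libraries), Cacng5 (6.66 ± 0.262) and Map3k15 (1.04 ± 0.0987; SD, n = 3 each). Of these neighbours, Wfs1 and Rgs14 overlapped between libraries and the other pairs did not. In DBA/2 Pcp4 was again highest, at 102 ± 5.09 FPKM, and Rgs14 (39.0 ± 3.66) stood before Wfs1 (33.5 ± 3.45) and Fibcd1 (27.8 ± 3.16; SD, n = 3 each), each overlapping the next. The place of Rgs14 depends on the gene model: the deposited table lists 2490 exonic bases for it, while the merged exons of GENCODE M21 span 4239. With the latter its mean was 18.7 in C57BL/6 and 22.9 in DBA/2, below Fibcd1 in both strains. Pcp4, listed with 641 bases against 1026, stayed highest, at 138 and 63.8.

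**Figure D3:**
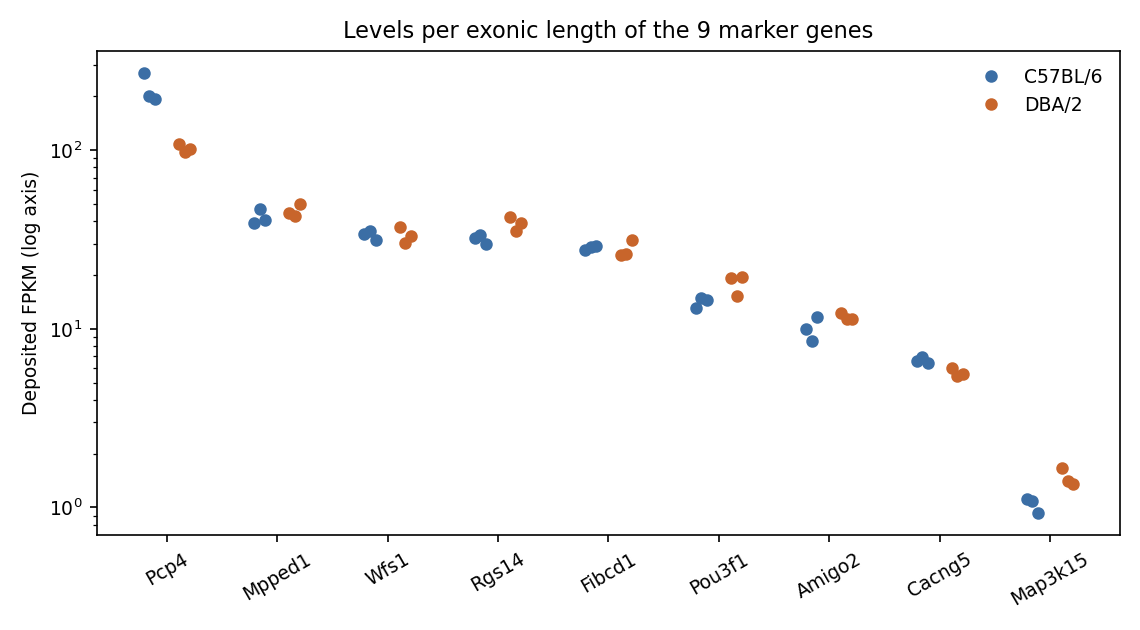
Deposited FPKM of the 9 marker genes (log axis) in each C57BL/6 library (blue) and DBA/2 library (orange), ordered by the C57BL/6 mean. Pcp4 is highest in both strains and Map3k15 lowest.

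Other genes known from CA1 were more often higher than lower in DBA/2. Of 12 tested, 5 were called higher and 1 lower, where 9.09% of all tested genes were called higher and 13.7% lower. Their median log2 fold change was 0.21 (0.00 for all tested genes). Osbpl6, an oxysterol-binding protein, rose from 101 ± 1.91 to 136 ± 6.79 CPM, and Ndst4, an enzyme of heparan sulfate synthesis, from 35.8 ± 5.92 to 46.0 ± 2.81 CPM (SD, n = 3 each). Ndst4 lost its call without DBA/2 replicate 2 or DBA/2 replicate 3 (0.35 and 0.32, edgeR adjusted p = 0.126 and 0.1) and without both Xist libraries (0.25, edgeR adjusted p = 0.167). Of these CA1 genes 2 were called higher and 1 lower without both Xist libraries. Zbtb20, a zinc finger transcription factor, and Man1a, a mannosidase of glycan processing, also rose, and both were named after their values were seen. Gpr161, an orphan receptor of primary cilia, fell, with 80.2 ± 3.34 CPM against 54.8 ± 8.68 CPM (SD, n = 3 per strain). Of 14 other CA2 genes 3 were called lower and none higher by edgeR, with a median of 0.03. This is 21.4% called, near the 22.8% of all tested genes. An unadjusted edgeR p under 0.05 was found for 7 of them. Without DBA/2 replicate 1, or without DBA/2 replicate 3, 4 were called lower and 1 higher, as with limma-voom, while the DESeq2 Wald test called 4 lower and none higher. Fgf2, a growth factor that astrocytes also make, fell from 12.1 ± 1.09 to 6.16 ± 0.227 CPM, Gsto1, a glutathione transferase, from 24.5 ± 0.928 to 16.3 ± 0.527 CPM, and Necab2, a neuronal calcium-binding protein, from 95.7 ± 2.31 to 78.0 ± 4.25 CPM (SD, n = 3 each). Ptpn5, a tyrosine phosphatase strong in CA2, was not called, at 182 ± 6.57 and 187 ± 4.44 CPM (SD, n = 3 each). Avpr1b, the vasopressin receptor that marks CA2, was not called either, at 0.350 ± 0.142 and 0.767 ± 0.209 CPM (SD, n = 3 each). Avpr1b rests on few counts, as 3 counts made 0.149 to 0.217 CPM in these libraries. Its missing call therefore does not show equal levels. Both genes were chosen after their values were seen.

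**Figure D4:**
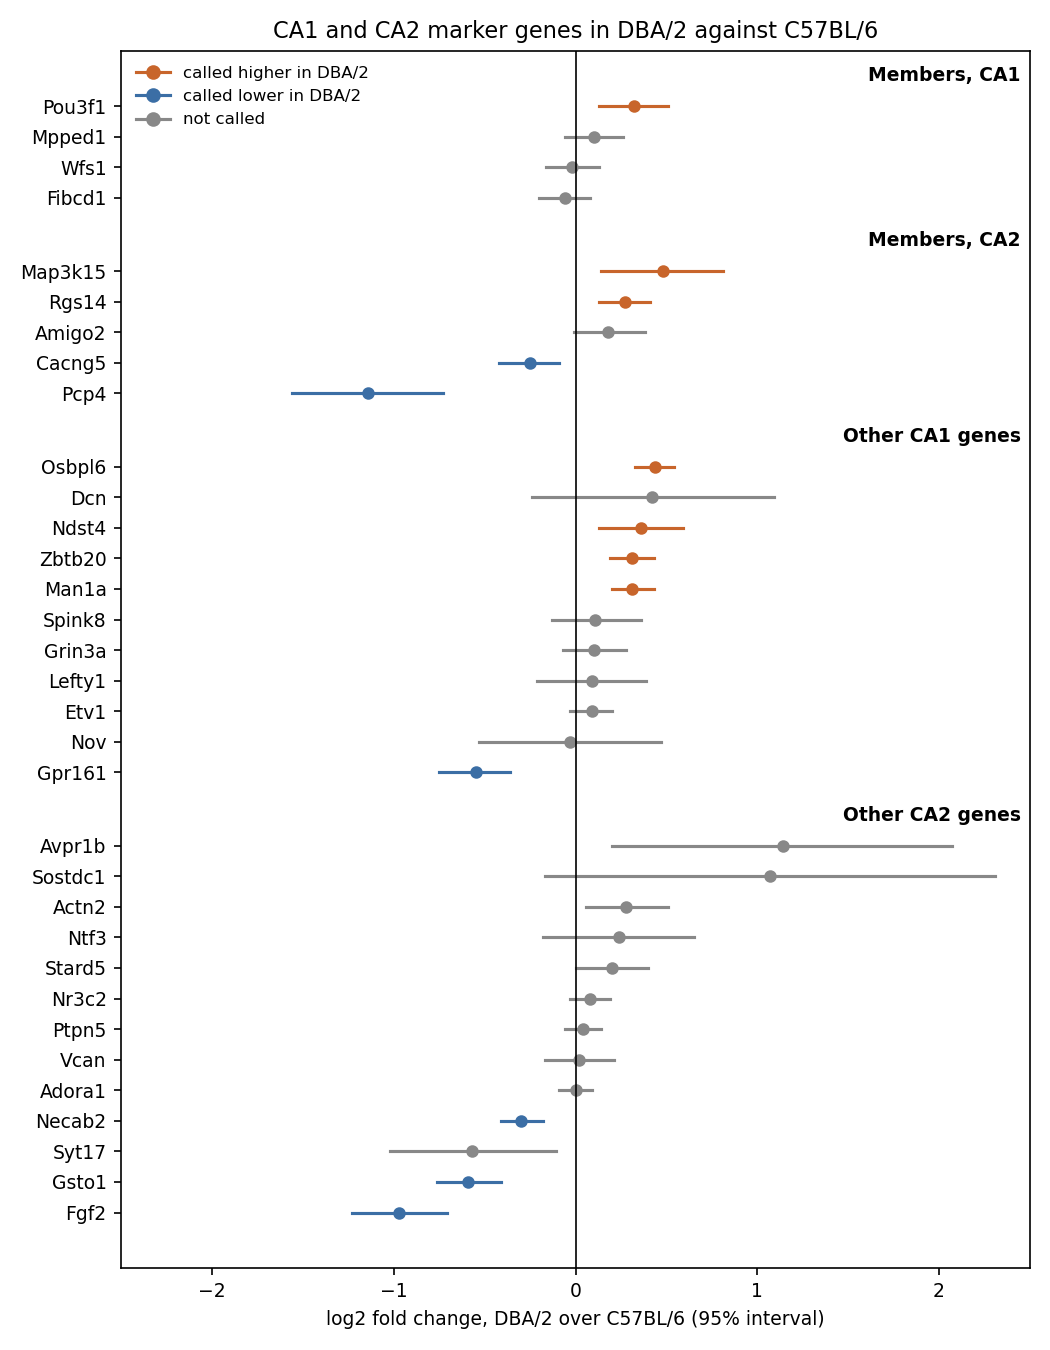
Log2 fold change, DBA/2 over C57BL/6, with its 95% interval (not adjusted for the number of genes) for the 9 members and the other CA1 and CA2 genes, without genes that a further list also holds. Orange marks genes called higher in DBA/2, blue genes called lower and grey genes not called, and Pcp4 lies lowest, at -1.14.

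Relatives of the members by sequence family changed in both directions, with 3 of 16 tested called higher and 4 lower. This is 43.8% called, against 22.8% of all tested genes. Pcp4l1, which encodes a protein related to that of Pcp4 and was singled out after its values were seen, had 96.9, 73.2 and 74.5 CPM in C57BL/6 and 47.8, 49.0 and 39.5 CPM in DBA/2. The log2 fold change was -0.84 ± 0.14 (SE, quasi-likelihood edgeR, adjusted p = 0.00596). As for Pcp4, the strains did not overlap and C57BL/6 replicate 1 was the highest library. Both traits also held for the summed thalamus and habenula markers. In each strain, replicates 2 and 3 of Pcp4l1 stood in the order of that sum and not in that of Pcp4. DBA/2 replicate 1, the highest DBA/2 library for Pcp4 and for the sum, was not the highest for Pcp4l1. Map3k6, a kinase of the same family as Map3k15, fell from 4.69 ± 0.571 to 0.813 ± 0.118 CPM (SD, n = 3 each). The genes related to Cacng5 moved in both directions. Cacng7 and Cacng8 rose, by 0.85 ± 0.19 and 1.30 ± 0.25 on the log2 scale (SE), and Cacng4, named after its value was seen, fell, with a log2 fold change of -0.43 ± 0.08 (SE). Cacng2 and Cacng3 were not called, at -0.13 and 0.05. Cacng8 was not called without both Xist libraries (0.89, edgeR adjusted p = 0.111), where 1 relative of the members was called higher and 3 lower. No member had a similar transcript elsewhere in the genome, at 95% identity over at least 200 aligned bases.

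Of 25 partners of Rgs14 and Pcp4, among them G alpha subunits, Ras and MAP kinases, calmodulins and calcium/calmodulin-dependent enzymes, 1 rose and none fell by edgeR (4.0% called, against 22.8% of all tested genes), with a median log2 fold change of 0.00. Without DBA/2 replicate 2, 4 were called higher, without DBA/2 replicate 3, 1 higher and 1 lower, and without both Xist libraries none. The one that rose was Braf, a kinase upstream of MAP kinase, from 193 ± 4.35 to 224 ± 8.31 CPM (SD, n = 3 per strain). Of 14 genes of the endoplasmic reticulum stress response around Wfs1, 3 rose and 1 fell (28.6% called), with a median of 0.11. The chaperone Hsp90b1 rose from 323 ± 27.7 to 388 ± 22.8 CPM, the transcription factor Xbp1 rose from 75.4 ± 5.61 to 88.7 ± 3.16 CPM, and the transcription factor Atf4 fell from 95.5 ± 2.49 to 82.4 ± 6.93 CPM (SD, n = 3 each). Atf4 lost its call on leaving out C57BL/6 replicate 2 (-0.19, edgeR adjusted p = 0.0507), DBA/2 replicate 2 (-0.14, edgeR adjusted p = 0.0784) or both Xist libraries (-0.25, edgeR adjusted p = 0.074).

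Markers of other cells in the tissue are given for comparison with the members. Over all tested genes 9.09% were called higher and 13.7% lower. Of 8 markers of excitatory neurons in general 3 were called higher and none lower, among them Tbr1, a cortical transcription factor that rose from 52.1 ± 2.71 to 69.7 ± 6.98 CPM (SD, n = 3 each), and their sum was 7410 to 8100 CPM in C57BL/6 and 7700 to 8340 CPM in DBA/2. Without DBA/2 replicate 2, 5 of them were called higher, and without both Xist libraries 1. Of 10 CA3 markers 1 was called higher and 2 lower, and of 11 dentate granule cell markers 4 higher and 3 lower. Of 6 subiculum markers edgeR called none, although 5 had an unadjusted p under 0.05. It called 2 of them without C57BL/6 replicate 1, and 1 without C57BL/6 replicate 2 or replicate 3, and limma-voom called 3 and the DESeq2 Wald test 2. None of 8 neocortex, 6 choroid plexus and 5 red blood cell genes was called by edgeR, and 0 had an unadjusted p under 0.05. Limma-voom called 1 in each of these lists, and the DESeq2 Wald test 1 red blood cell gene. With the replicate number as a block, edgeR called 3 choroid plexus genes higher and 2 red blood cell genes lower. Without the filter on low counts, edgeR called 1 neocortex gene higher and 1 lower. Without C57BL/6 replicate 2, 1 neocortex and 1 red blood cell gene were called lower, as was 1 neocortex gene without DBA/2 replicate 2. Summed choroid plexus markers had 660 to 1490 CPM in C57BL/6 and 1230 to 2700 CPM in DBA/2. Of 7 striatum markers 3 were called higher, but none without C57BL/6 replicate 2, 1 without C57BL/6 replicate 1 or replicate 3, and 1 higher and 1 lower without DBA/2 replicate 2. Of 9 interneuron markers 1 was called higher and 1 lower, and of 8 astrocyte markers 1 higher and 5 lower. The summed astrocyte markers overlapped between the strains, with 4900 to 5170 CPM in C57BL/6 and 5010 to 5580 CPM in DBA/2. All 8 oligodendrocyte markers had negative log2 fold changes, and 7 had every DBA/2 library below every C57BL/6 library, with sums of 6640 to 8300 CPM in C57BL/6 and 4500 to 6060 CPM in DBA/2. The number called lower was 1, but 3 when C57BL/6 replicate 1 was left out, and 2, none and 6 when DBA/2 replicate 1, 2 or 3 was. Limma-voom called 7. Of 8 microglia markers 5 were called lower, with sums of 278 to 304 and 209 to 227 CPM. The part of these shifts in the values of the members was not tested.

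The gene whose log2 CPM (with a small offset added before the log) followed a member most closely over the 6 libraries was taken from 12332 genes with a mean of at least 5 CPM. For Pcp4 it was Plcb3, a phospholipase C (r = 0.997), which had 24.9, 23.3 and 23.1 CPM in C57BL/6 and 19.4, 19.3 and 19.1 CPM in DBA/2. For Rgs14 it was Grpel2 (r = 0.997), for Pou3f1 Gga1 (r = 0.998), for Map3k15 Alas1 (r = 0.994) and for Cacng5 Ptp4a3 (r = 0.999). For the members not called it was Fam189a1 for Fibcd1 (r = 0.995), Mmadhc for Wfs1 (r = 0.994), Tfr2 for Mpped1 (r = 0.999) and Tmem200c for Amigo2 (r = 0.988). Over only 6 libraries that differ by strain such likeness is common: 541 genes had r above 0.95 with Pcp4 and 12 with Amigo2.

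The number of members called varied with the test. The DESeq2 Wald test called 3 members, Pcp4, Rgs14 and Pou3f1, and limma on log2(FPKM + 1) called 2, Pcp4 and Rgs14. Map3k15 and Cacng5 were called by neither. Leaving out 1 library at a time left 2 to 5 members called.

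**Figure D5:**
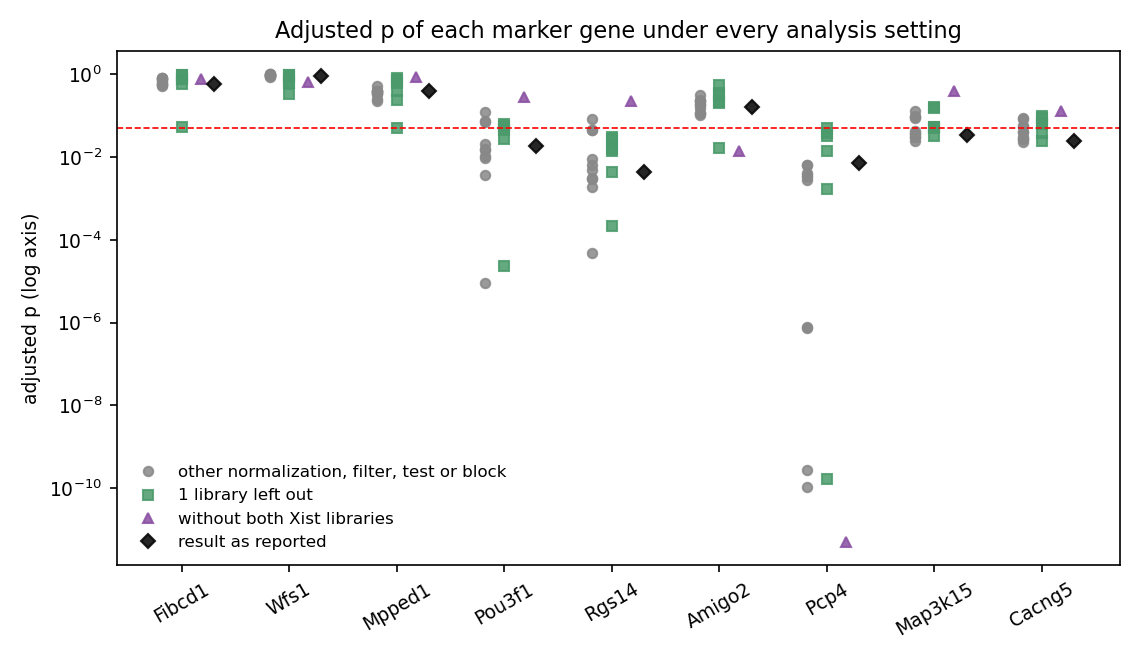
Adjusted p (log axis) of each member as reported (black diamonds), with 1 library left out (green squares), without both Xist libraries (purple triangles) and under the other analysis settings (grey circles), with the threshold of 0.05 as a dashed line. Pcp4 lies below the line except for 1 setting, and Map3k15 and Cacng5 lie on both sides of it.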

How the data were processed

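Total RNA from frozen hippocampus was sequenced after preparation with an NEBNext Ultra kit on an Illumina HiSeq, per the labels' protocols. The submitters' processing notes name Trimmomatic 0.30, HISAT2 2.0.1, the build GRCm38 and Cufflinks 2.2.1. Counting program, annotation and strand setting: not given in the sources used here. Deposited by the authors were raw counts for each gene and FPKM values, which within 0.005 equalled the count over listed exonic length and library total. A further 12 sample columns of the table have no match among the labels and were left unused. Samples were grouped by the strain label.

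Counts were tested with edgeR 4.0.16 in R 4.3.3 (TMM, filterByExpr by strain, robust quasi-likelihood fit, Benjamini-Hochberg adjustment). The SE of a log2 fold change is its size over the square root of F. The script was tested on simulated data. Libraries of a strain differed beyond sampling noise (chi-square per degree of freedom 3.36 to 4.22), so none was merged. Alternatives were DESeq2 1.42.0 size factors and Wald test, limma 3.58.1 (voom, or log2 FPKM with a pseudocount of 1 or 0.1), other filters, a replicate block and left-out libraries. Coordinates are from GENCODE M21, which held 99.6% of the gene IDs.

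The members and lists were chosen with earlier results of these data known. Genes named beside the members are up to 3 called genes of largest change per list, or the 2 most abundant genes of a list without a call, the gene most like each member, and overlapping genes. Not all are printed, and 1 called gene that counts in its lists is not reported here by name.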

Additional observations from a re-analysis of the deposited data

How the results depend on the processing

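Direction and call of Fibcd1 held under all 17 alternatives, and the direction of Pcp4, Rgs14, Pou3f1, Map3k15, Cacng5 and Amigo2 did too. Leaving out 1 library at a time gave log2 fold changes of -1.24 to -0.97 for Pcp4, 0.26 to 0.43 for Pou3f1, 0.38 to 0.53 for Map3k15, -0.29 to -0.22 for Cacng5, 0.09 to 0.31 for Amigo2 and -0.10 to 0.06 for Wfs1, with 2 to 5 members called. Without both Xist libraries 2012 genes, 2 members and 39 of the listed genes other than members were called, against 4000, 5 and 59. There Pou3f1 (0.25), Rgs14 (0.20), Map3k15 (0.40) and Cacng5 (-0.31) lost their calls, Amigo2 (0.43) gained one and Mpped1 turned to -0.05. This setting has fewer samples. Limma on log2(FPKM + 1), on log2(FPKM + 0.1) and on log2(FPKM + 1) without a filter called 2, 2 and 1 members. Under these Pou3f1 (0.32, 0.34 and 0.32), Map3k15 (0.27, 0.46 and 0.27) and Cacng5 (-0.20, -0.23 and -0.20) were not called, nor was Rgs14 (0.28) without a filter, which left 2459 genes called over all. Wfs1 was 0.00 in all of these and 0.01 with the library size alone. The DESeq2 Wald test called 3 members and neither Map3k15 (0.48) nor Cacng5 (-0.25). The cause was not tested. Among listed genes without a call, the sign turned with 1 library left out for Nr4a2 (-0.19 to 0.02), Hbb-bs (-0.87 to 0.13) and Hba-a1 (-0.03 to 1.11, and -0.59 without both Xist libraries). Counts of called genes in several marker lists moved by over 1.5 times. The subiculum, red blood cell, oligodendrocyte and striatum counts did so in 10, 8, 12 and 7 of 17 alternatives.

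Deviations of same-numbered libraries from their strain means had correlations of 0.217, -0.223 and -0.0196. Summed choroid plexus markers fell with the replicate number in both strains. They were 1490, 962 and 660 CPM in C57BL/6 and 2700, 1940 and 1230 CPM in DBA/2. Whether same-numbered libraries share more than a number was not tested. With the replicate number as a block, 3827 genes and the same 5 members were called. Map3k15 rests on at most 122 counts per library, which limits its precision.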
